A study of Mus musculus with 375 samples.

Results

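Expression of 10 genes of the glutathione cycle was followed in single stem cells of the mouse small intestine, isolated by their Lgr5, a marker of the crypt base, from animals fed a high-fat diet (HFD) or a control diet. The 10 genes were Slc7a11, Gclc, Gclm, Gss, Ggct, Oplah, Gpx1, Gpx2, Gpx4 and Gsr, and all 10 were found by symbol among the 23420 genes of the table. Oplah was chosen by its difference in mean TPM between the diets in these same cells, so its diet values are a description with no test. The other 9 genes were chosen for their place in the cycle, with earlier results of these data known. The cells fall into 4 sets by their titles, HFD 1 and HFD 2 (91 and 92 cells used of 93 and 94) and control 1 and control 2 (93 and 91 used of 94 and 94). A cell was used if at least 2000 genes lay above 0 TPM (a transcript level relative to all transcripts of the cell and corrected for length), which kept 367 of 375 cells. Nothing else about the animals was given in the labels, neither age, strain, sex nor the time on the diet, and nothing there ties a set to separate mice. P-values therefore cover only the spread between these sets, which may be technical.

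Glutathione is a tripeptide of glutamate, cysteine and glycine that holds the cytosol in a reduced state and feeds electrons to the enzymes that destroy peroxides. Cells take up cystine through an exchanger whose transport subunit is Slc7a11. Glutamate-cysteine ligase, made of the catalytic subunit Gclc and the modifier subunit Gclm, joins glutamate to cysteine, and glutathione synthetase (Gss) adds glycine. In the return arm, gamma-glutamyl peptides are cleaved by gamma-glutamylcyclotransferase (Ggct) to 5-oxoproline, which 5-oxoprolinase (Oplah) turns back into glutamate with ATP. The peroxidases Gpx1, Gpx2 and Gpx4 spend glutathione on peroxides; Gpx2 is known as the form of the gut epithelium, and Gpx4 acts on lipid peroxides in membranes. Glutathione reductase (Gsr) restores the reduced form with NADPH.

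The promoters of Slc7a11, Gclm and Ggct are given because, among the genes with a window, these 3 held a motif through which the pathway is known to be controlled. RefSeq windows on GRCm38.p6, each 250 bases before to 50 bases after a gene's start, were found for 7 of the 10 genes and searched on both strands for 2 motifs. TGACNNNGC is the core of the antioxidant response element, through which NRF2 acts, and TGATGNAA is a core of the amino acid response element, through which ATF4 acts. The first is held by 12.4% of 32851 windows of all genes and the second by 3.97%. No match of one motif overlapped a match of the other. Matches are in capitals, and each window is written 5′ to 3′ on the gene's own strand. Slc7a11, chr3:50443564-50443863, minus strand, holds the amino acid motif at −66 to −59 from the start and again, on the other strand, at −47 to −40. Gclm, chr3:122245307-122245606, plus strand, holds the antioxidant motif at −134 to −126 on the other strand. Ggct, chr6:54992818-54993117, minus strand, holds it at −174 to −166 on the other strand and at 5 to 13.
Slc7a11: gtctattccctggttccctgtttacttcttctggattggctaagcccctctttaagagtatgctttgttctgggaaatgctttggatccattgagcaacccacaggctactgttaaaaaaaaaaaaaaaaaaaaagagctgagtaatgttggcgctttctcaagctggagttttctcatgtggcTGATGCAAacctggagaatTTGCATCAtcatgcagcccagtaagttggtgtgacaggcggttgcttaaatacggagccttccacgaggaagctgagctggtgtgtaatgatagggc
Gclm: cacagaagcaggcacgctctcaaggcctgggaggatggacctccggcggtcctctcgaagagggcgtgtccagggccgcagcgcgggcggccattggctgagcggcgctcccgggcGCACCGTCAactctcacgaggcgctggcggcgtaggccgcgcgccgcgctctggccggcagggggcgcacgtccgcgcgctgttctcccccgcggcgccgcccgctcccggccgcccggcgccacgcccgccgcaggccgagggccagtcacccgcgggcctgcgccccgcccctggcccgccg
Ggct: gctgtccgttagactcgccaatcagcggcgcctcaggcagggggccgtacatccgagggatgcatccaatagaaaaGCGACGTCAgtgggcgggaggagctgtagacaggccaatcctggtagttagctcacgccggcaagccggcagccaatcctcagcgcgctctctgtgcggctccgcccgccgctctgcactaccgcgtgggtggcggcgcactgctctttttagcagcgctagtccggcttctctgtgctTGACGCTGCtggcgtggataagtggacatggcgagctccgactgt
Neither motif was found in the windows of Gss, Gpx1, Gpx2 and Gpx4. A match in these letters is a description and shows no binding.

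The levels of the 10 genes were far apart. By their mean over the 4 sets the order was Gpx2, Gpx1, Gpx4, Gss, Gsr, Gclm, Ggct, Oplah, Gclc and Slc7a11. Mean TPM over the cells of a set was 826 and 1058 for Gpx2 in HFD 1 and HFD 2, against 572 and 675 in control 1 and control 2. At the low end of this order, Slc7a11 had 2.23 and 2.31 TPM in the HFD sets, against 1.46 and 2.14 TPM in the control sets. In the HFD sets alone Oplah lay lower still, at 1.05 and 1.61 TPM. The 4 sets of Gpx4 overlapped in level with those of Gss, those of Ggct with Oplah, and those of Oplah with Gclc, while the sets of all other neighbours in this order did not overlap.

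**Figure D1:**
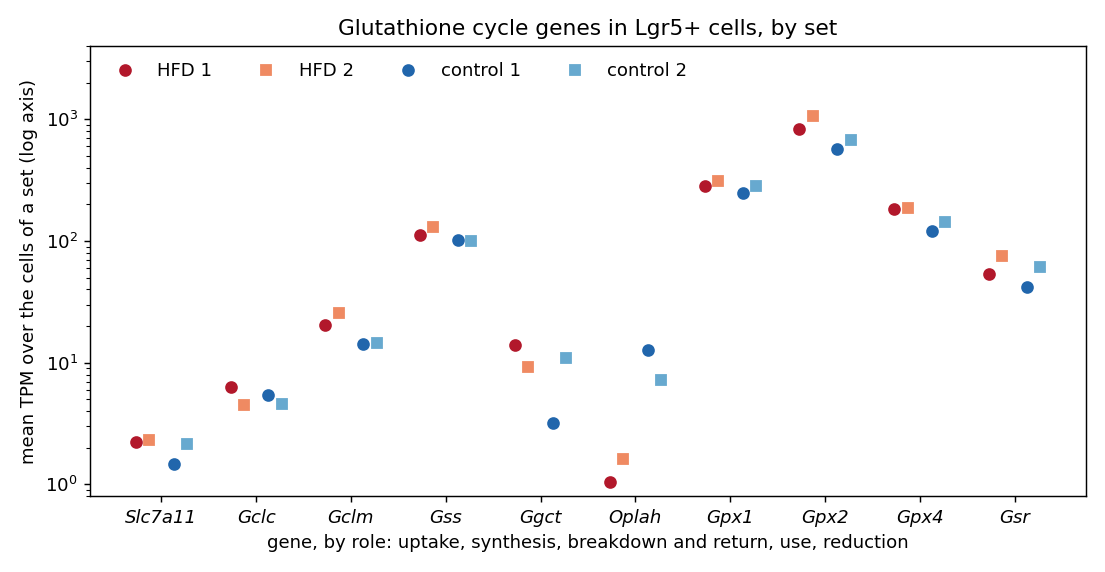
Mean TPM of each gene over the cells of a set, on a log axis, with HFD 1, HFD 2, control 1 and control 2 as separate points and genes ordered by role. Oplah is the gene whose HFD points (1.05 and 1.61 TPM) lie farthest below its control points (12.7 and 7.16 TPM). Gclm, Gss, Gpx1, Gpx2, Gpx4 and Slc7a11 lie higher in both HFD sets, as do 29.5% of all tested genes.

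Oplah, the enzyme that returns 5-oxoproline to glutamate, was lower in the HFD cells. It averaged 1.05 TPM in HFD 1 and 1.61 TPM in HFD 2, against 12.7 TPM in control 1 and 7.16 TPM in control 2. The means were 1.33 ± 0.397 TPM on the HFD and 9.94 ± 3.94 TPM on the control diet (SD, n = 2 sets each), and both HFD sets lay below both control sets. The log2 fold change of mean TPM + 1, HFD over control, was −2.19 (limma SE 0.42). That scale understates changes of low genes, and the ratio of the mean TPM itself was 0.134.

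Most cells of every set held no Oplah at all, and the difference lay both in how many cells held it and in how much. Oplah reached 1 TPM or more in 5 of 91 cells of HFD 1 (5.49%, 95% Clopper-Pearson interval 1.81 to 12.4%) and 9 of 92 of HFD 2 (9.78%, 4.57 to 17.8%). In the control sets it did so in 23 of 93 cells (24.7%, 16.4 to 34.8%) and 12 of 91 cells (13.2%, 7.0 to 21.9%). The intervals of HFD 2 and control 2 overlapped, and all such intervals here cover counting error only. Among the cells that held it, the mean was 19.1 and 16.5 TPM in the HFD sets, against 51.4 and 54.3 TPM in the control sets. The highest cell stood at 45.9 TPM in HFD 1 and 38.4 TPM in HFD 2, against 132 TPM in control 1 and 125 TPM in control 2. At 10 TPM or more there were 3 and 6 cells in the HFD sets, against 20 and 9 in the control sets. With few holders, single cells weigh heavily: the 3 highest cells gave 88.3% and 61.5% of the Oplah TPM of HFD 1 and HFD 2, against 30.5% and 46.3% in control 1 and control 2. When log2(TPM + 1) was taken in each cell before averaging, which gives the many cells at 0 more weight, the fold change was −0.71.

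**Figure D2:**
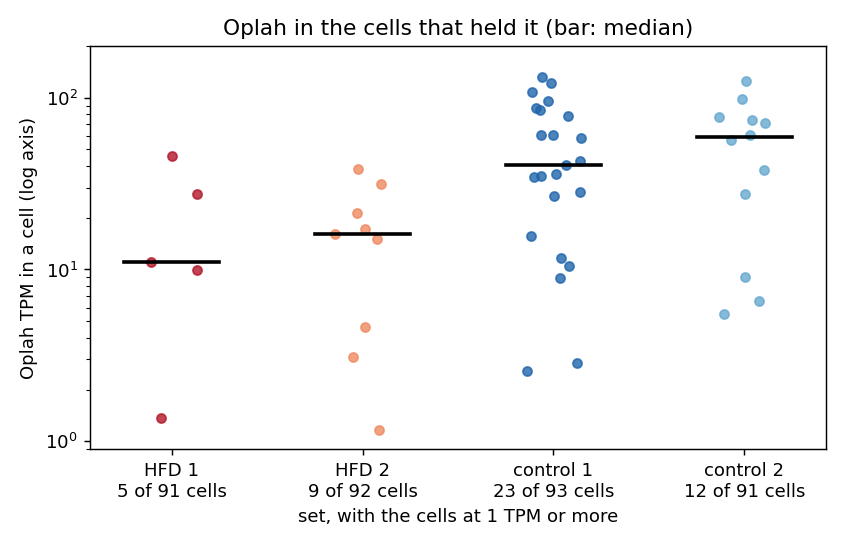
Oplah TPM on a log axis in each cell that held at least 1 TPM, by set, with the median as a bar and the number of such cells under each set. The highest cell stands at 45.9 TPM in HFD 1 and 38.4 TPM in HFD 2, against 132 TPM in control 1 and 125 TPM in control 2.

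Oplah is on the minus strand of chromosome 15 (76296601 to 76328015, GENCODE M21, GRCm38). Its ends overlap Smpd5 and Exosc4, both annotated on the opposite strand, and Smart-seq2 libraries keep no strand, so reads in the overlaps cannot be assigned to one gene. Exosc4, a subunit of the RNA exosome, did not share the Oplah pattern: it had 36.8 and 43.4 TPM in the HFD sets, against 32.9 and 28.5 TPM in the control sets (log2 fold change 0.37, SE 0.26, limma adjusted p = 0.613). Smpd5 stayed at 0.529 and 0.581 TPM in the HFD sets, against 0.269 and 1.31 TPM in the control sets, under the filter on low genes. Of the other protein-coding neighbours, Grina had a log2 fold change of −0.23 (SE 0.28), Gpaa1 of 0.35 (SE 0.24) and Cyc1, a subunit of respiratory complex III, of 0.46 (SE 0.30), and Spatc1 was too low to test. None of the 4 tested neighbours was called.

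Cells holding Oplah were neither deeper nor shallower in every set. They detected a median of 6386 genes in HFD 1 and 6457 in HFD 2, against 6894.5 and 6265 in the other cells of those sets. In control 1 and control 2 the medians were 7029 and 5861.5 genes, against 6870 and 6207. Their Lgr5 was higher in median in all 4 sets: 124 against 90.8 TPM in HFD 1, 101 against 94.5 TPM in HFD 2, 148 against 144 TPM in control 1 and 177 against 71.9 TPM in control 2. Split at the median Lgr5 of each set, Oplah was likewise higher in the upper cells of all 4 sets, a pattern that 10.7% of all tested genes showed. The log2 ratios were 0.34 in HFD 1, 0.40 in HFD 2, 0.15 in control 1 and 2.35 in control 2, and their mean of 0.81 became 0.30 without control 2. Lgr5 itself averaged 136 and 133 TPM in the HFD sets, against 165 and 119 TPM in the control sets. Over cells within a set, the genes whose TPM ranked most like Oplah were Pdgfa (mean Spearman rho of the 4 sets 0.22), Sepp1 (0.19), Pi15 (0.17), Nsl1 (0.17), Il22ra1 (0.17) and Kctd3 (0.17), of 9238 genes compared. All of these are weak, and rest on a gene at 0 in most cells.

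The 9 genes other than Oplah were tested with limma over the 11667 genes that averaged 1 TPM or more, the filter that all 10 genes passed. Over all of these, 59 genes (0.506%) were called at an adjusted p under 0.05, 43 higher and 16 lower on the HFD. None of the 9 was called, and 1 of them, Gclm, had an unadjusted p under 0.05. All 9 had a log2 fold change above 0 with TPM as deposited. So did 62.5% of all tested genes, whose median was 0.13 against a median of 0.32 for the 9. In 6 of the 9 (Gclm, Gss, Gpx1, Gpx2, Gpx4 and Slc7a11) both HFD sets lay above both control sets, as they did in 29.5% of all tested genes. This count depended on the ribosomal RNA precursor Rn45s, which took 26.9% and 18.6% of all TPM in the HFD sets, against 39.1% and 24.6% in the control sets. With Rn45s left out of each total, 3 of the 9 (Gclm, Gpx2 and Gpx4) kept both HFD sets above both control sets, against 18.0% of all genes, the median of all genes was −0.05, and the log2 fold changes of Gclc and Gpx1 turned below 0.

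Gclm, the modifier subunit of the ligase, had the largest log2 fold change of the synthesis genes. It averaged 20.5 and 25.4 TPM in the HFD sets, against 14.2 and 14.4 TPM in the control sets, without overlap. The log2 fold change was 0.64 (SE 0.29, limma adjusted p = 0.420), which missed the threshold. Cells holding Gclm made up 60.4% (49.6 to 70.5%) of HFD 1 and 55.4% (44.7 to 65.8%) of HFD 2, against 48.4% (37.9 to 59.0%) of control 1 and 42.9% (32.5 to 53.7%) of control 2. The difference of 12.3 percentage points exceeded the spread between sets of 3.73, with an exact two-sided permutation p = 0.333, the smallest that 4 sets allow. Both HFD shares lay above both control shares, as for 14.4% of all tested genes. In the cells that held Gclm its mean was 34.0 and 45.9 TPM in the HFD sets, against 29.4 and 33.7 TPM in the control sets.

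Gclc, the catalytic partner of Gclm, showed no such gap. It had 6.36 and 4.48 TPM in the HFD sets, against 5.40 and 4.58 TPM in the control sets, and the sets overlapped (log2 fold change 0.09, SE 0.38, limma adjusted p = 0.959). Its share of cells followed the set number rather than the diet: 49.5% and 34.8% in HFD 1 and HFD 2, against 51.6% and 37.4% in control 1 and control 2. Both ligase subunits were found in only part of the cells, whereas Gss, the second enzyme of synthesis, was found in 87.9% and 89.1% of HFD cells, against 90.3% and 79.1% of control cells. Gss averaged 111 and 131 TPM in the HFD sets, against 102 and 99.2 TPM in the control sets (log2 fold change 0.26, SE 0.24, adjusted p = 0.739 in limma). The 5′ end of Gss overlaps antisense transcripts, and its other end overlaps Acss2 on the opposite strand.

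Slc7a11, the cystine carrier, had the lowest mean over the 4 sets of the 10 genes, although Oplah was lower in both HFD sets. At 1 TPM or more, Slc7a11 was found in 59.3% and 51.1% of HFD cells, against 49.5% and 57.1% of control cells. In those cells it stood at a median of 2.75 and 3.47 TPM on the HFD, against 1.84 and 2.67 TPM on the control diet. Its log2 fold change was 0.24 (SE 0.46, limma adjusted p = 0.894).

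In the return arm, Ggct, which produces the 5-oxoproline that Oplah consumes, differed more between control 1 and control 2 than between the diets. It averaged 14.1 and 9.28 TPM in the HFD sets, against 3.17 and 10.9 TPM in the control sets, so the sets overlapped. The log2 fold change was 0.82 (SE 0.41, limma adjusted p = 0.472). It was found in 35.2% (25.4 to 45.9%) of HFD 1 and 17.4% (10.3 to 26.7%) of HFD 2, against 16.1% (9.32 to 25.2%) of control 1 and 18.7% (11.3 to 28.2%) of control 2, with HFD 1 alone standing high. The log2 fold change depended on control 1: it was 0.06 without control 1 and 1.58 without control 2, where limma's adjusted p was 0.0445. Of the cells holding Oplah, 2 of 5 and 1 of 9 in the HFD sets and 3 of 23 and 2 of 12 in the control sets also held Ggct. Among the other cells, Ggct was held by 30 of 86 and 15 of 83 in the HFD sets and by 12 of 70 and 15 of 79 in the control sets.

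The peroxidases were the most abundant of the genes and were found in nearly every cell. Gpx2 averaged 942 ± 164 TPM in the HFD sets and 624 ± 72.8 TPM in the control sets (SD, n = 2 each). Its log2 fold change was 0.59 (SE 0.32, limma adjusted p = 0.507). Gpx4 averaged 184 and 187 TPM in the HFD sets, against 121 and 143 TPM in the control sets (0.49, SE 0.25, adjusted p = 0.471 in limma). Gpx1 stood at 284.8 and 309 TPM in the HFD sets, against 246 and 284.8 TPM in the control sets, so that HFD 1 and control 2 were all but equal (0.16, SE 0.26, adjusted p = 0.863 in limma). None of the 3 was called, although both HFD sets lay above both control sets in each, in Gpx1 only just. This pattern was shown by 29.5% of all tested genes. Gpx1 was at 1 TPM or more in 183 of 183 HFD cells and 183 of 184 control cells, so the values differ in amount per cell rather than in the number of cells. A pseudogene row, Gpx2-ps1, held 0.681 and 2.26 TPM in the HFD sets, against 0.940 and 1.53 TPM in the control sets, far under Gpx2 itself. Gpx2 lies within Fntb, which is on the opposite strand.

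Gsr, the reductase, averaged 54.0 and 74.99 TPM in the HFD sets, against 41.8 and 61.4 TPM in the control sets. Both sets numbered 2 were above both sets numbered 1, and the diets overlapped (log2 fold change 0.32, SE 0.26, limma adjusted p = 0.689). It was found in 84.6% and 82.6% of HFD cells, against 89.2% and 76.9% of control cells.

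**Figure D3:**
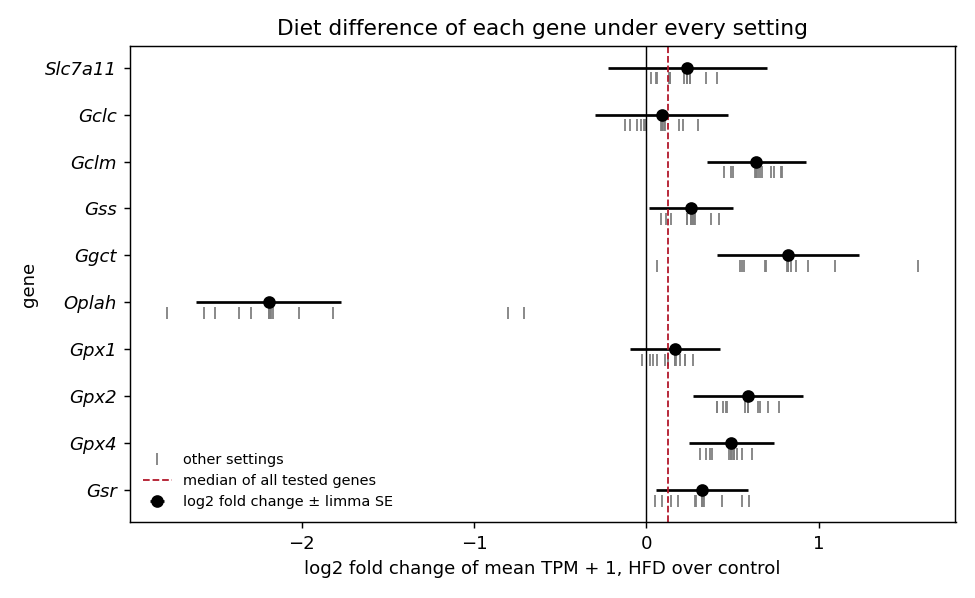
Log2 fold change of mean TPM + 1, HFD over control, for each gene, as a point with its limma SE, with grey ticks for the values under the other settings and a dashed line at the median of all tested genes (0.13). Gclm, Gss, Gsr, Ggct, Gpx2, Gpx4 and Slc7a11 keep to the right of 0 under every setting in which they were tested. Gclc and Gpx1 lie on both sides of 0, and Oplah lies between −2.78 and −0.71.

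**Figure D4:**
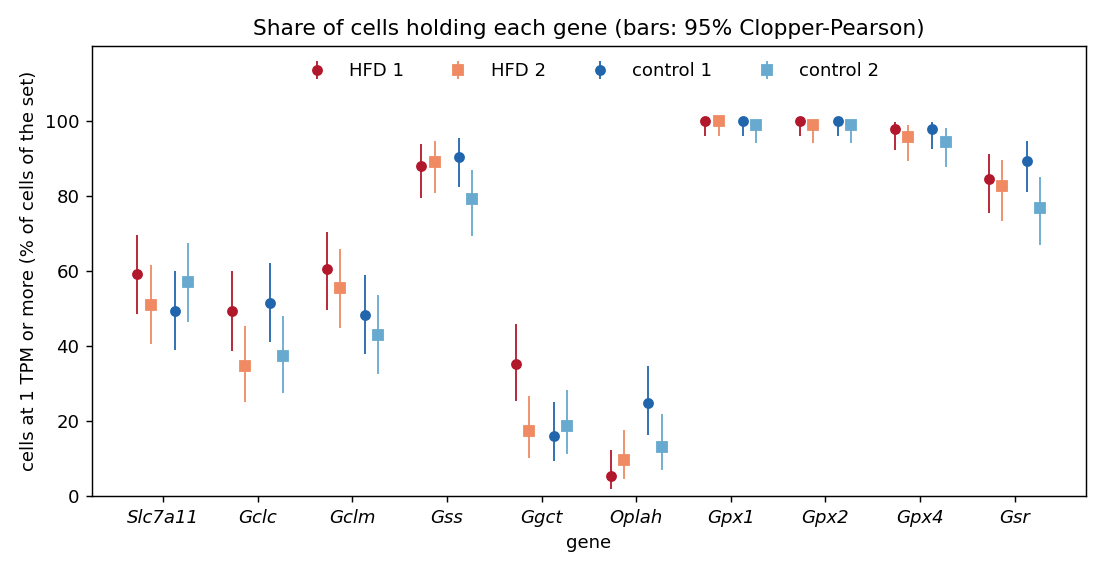
Percent of the cells of each set with a gene at 1 TPM or more, with 95% Clopper-Pearson intervals. Gpx1, Gpx2 and Gpx4 were found in 94.5% of cells or more in every set, Gclm was in more cells of both HFD sets, and Oplah was in at most 24.7% of the cells of a set.

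Lists of cell type markers also differed in summed TPM between the sets, some of them mainly through 1 set. The 10 Paneth cell markers, all above 1 TPM in at least 1 set, summed to 6133 and 537 TPM in the HFD sets, against 85.8 and 57.0 TPM in the control sets. The 10 goblet markers summed to 661 and 550 TPM in the HFD sets, against 512 and 78.3 TPM in the control sets. Without the cells that held at least 3 markers of either list at 10 TPM (26 and 20 HFD cells, 11 and 8 control cells), the log2 fold change was −2.17 for Oplah, 0.72 for Gclm, 0.66 for Gpx2, 0.51 for Gpx4 and 0.02 for Slc7a11. Enterocyte markers (12 genes) summed to 1185 and 1362 TPM in the HFD sets, against 628 and 784 TPM in the control sets. Proliferation markers (15 genes) summed to 1719 and 1713 TPM, against 1063 and 1438 TPM. Stem cell markers (11 genes, Lgr5 among them) summed to 10655 and 13132 TPM in the HFD sets. In the control sets they summed to 8187 and 10388 TPM. The part of these lists in the diet values was not tested. Stromal markers (7 genes) were all under 1 TPM in every set.

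Cells of the same set also differed in these genes by how strongly they expressed the 15 proliferation markers. When each set was split at its median proliferation score, the mean log2(TPM + 1) of those markers, Slc7a11, Gsr and Gpx4 were higher in the upper cells in 4 of 4 sets. This was so for 17.4% of all tested genes. Slc7a11 averaged 3.64 against 0.850 TPM in upper and lower cells of HFD 1, and 3.83 against 0.787 TPM in HFD 2. In control 1 it averaged 2.06 against 0.866 TPM, and in control 2 it averaged 3.58 against 0.734 TPM. The mean log2 ratio of upper over lower cells was 1.22 for Slc7a11, 0.57 for Gsr and 0.35 for Gpx4, whereas Gpx1 was lower in the upper cells of all 4 sets, as were 11.4% of all tested genes. The mean for Gpx1 was −0.21, and −0.12 without HFD 1. Cells with more detected genes also had more Slc7a11: its Spearman rho with genes per cell was between 0.46 and 0.66 in the 4 sets, and split by genes per cell it was higher in the upper cells of 4 of 4 sets, as was Gclm, against 16.5% of all tested genes. The part of detection depth in the difference by proliferation was not tested. Among themselves the genes were at most weakly related in TPM from cell to cell. The highest mean rho of the 45 pairs was 0.19, for Gsr and Slc7a11, with 0.11 and 0.35 in the HFD sets and 0.29 and 0.023 in the control sets. How far cells at 0 lower these values was not tested.

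**Figure D5:**
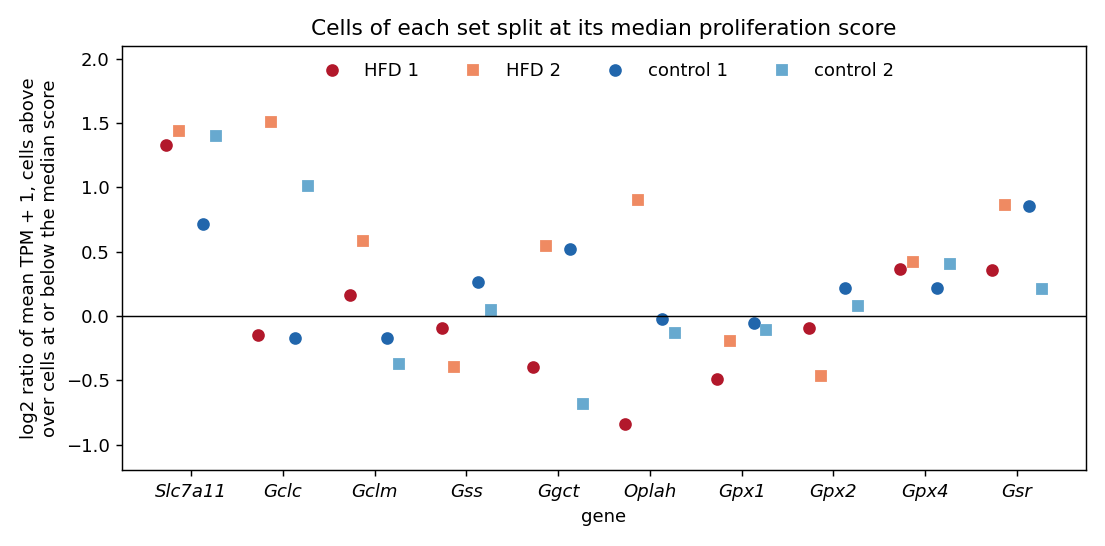
Log2 ratio of mean TPM + 1 in cells above over cells at or below the median proliferation score of their set, for each gene and set. Slc7a11, Gsr and Gpx4 lie above 0 in all 4 sets and Gpx1 below 0 in all 4.

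Around the cycle, 155 further genes were listed by role, of which 131 passed the filter on low genes. None of the 131 was called in either direction, beside a share of only 0.506% called among all tested genes. A log2 fold change above 0 was found in 91 and below 0 in 40, and the median of the 131 was 0.21 (0.13 over all tested genes). An unadjusted p under 0.05 was reached by 19 of the 131, and by 11.1% of all tested genes. Both HFD sets lay above both control sets in 50, against 29.5% of all tested genes, and below them in 15, against 12.3%. The counts above 0 here and in each list below stand beside the 62.5% of all tested genes that were above 0 with TPM as deposited, a share that shifts with Rn45s as described for the 9 genes. The nearest to the threshold were Psat1, which makes phosphoserine on the way to serine and glycine, and Gstm2, a glutathione S-transferase. Psat1 had 49.8 and 39.0 TPM in the HFD sets, against 22.0 and 19.6 TPM in the control sets (log2 fold change 1.05, SE 0.27, limma adjusted p = 0.0868). Gstm2 had 34.8 and 35.3 TPM in the HFD sets, against 68.9 and 69.2 TPM in the control sets (−0.96, SE 0.25, adjusted p = 0.0972 in limma).

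The lists follow by role, and values in parentheses open with the log2 fold change. Of the 11 genes tested for ATF4 and amino acid stress, 9 had a log2 fold change above 0, and Phgdh (0.72) and Psph (0.74), the other enzymes of serine synthesis, stood beside Psat1, with Atf4 itself at 0.43 (SE 0.24, limma adjusted p = 0.534). Among 15 genes of cysteine and methionine supply, 11 were above 0; Cbs, which opens the route from homocysteine to cysteine, had 10.4 and 14.9 TPM in the HFD sets, against 7.48 and 3.32 TPM in the control sets (1.16, SE 0.38, adjusted p = 0.244 in limma). Slc7a9 (0.59) did not overlap between the diets either, whereas Slc1a4 (0.67) and Mat2b (0.43) did; both HFD sets lay above both control sets in 3 of the 15. Of 14 NADPH genes 10 were above 0, among them Mthfd2 (0.80), Taldo1 (0.65) and Idh1 (0.41), while Me3 stood at −0.96. None of these passed the test.

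On the breakdown side, Cndp2, a peptidase that splits cysteinylglycine, had 33.8 and 40.6 TPM in the HFD sets, against 17.1 and 20.4 TPM in the control sets (0.95, SE 0.27, limma adjusted p = 0.158). Of the gamma-glutamyl transferase genes listed, Ggt6 and Ggt7 were tested and gave opposite signs, at −0.63 (SE 0.27) and 1.22 (SE 0.53). Ggt7 was near the filter, with 3.29 and 1.16 TPM in the HFD sets, against 0.289 and 0.329 TPM in the control sets. Ggt1 and Ggt5 were at or near 0. The aminopeptidase Anpep stood at −0.72. The 20 tested glutathione S-transferases were divided, 10 above 0 and 10 below, with a median of 0.01; after Gstm2 came Gstm7 (−0.61), Mgst3 (0.53) and Gstm5 (0.48). Ethe1, the mitochondrial persulfide dioxygenase that uses glutathione, had 18.7 and 14.4 TPM in the HFD sets, against 9.01 and 6.16 TPM in the control sets (1.04, SE 0.33, adjusted p = 0.225 in limma). The mitochondrial carrier Slc25a10 (0.52), Tst (0.42) and Mpst (−0.60) followed in that list. Glutaredoxins Glrx3 (0.48), Glrx2 (0.46), Glrx5 (0.32) and Glrx (0.03) were not called.

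Nfe2l2, which encodes NRF2, had 86.2 and 93.5 TPM in the HFD sets, against 74.9 and 72.9 TPM in the control sets (0.28, SE 0.24, limma adjusted p = 0.709), and its inhibitor Keap1 stood at 0.16. Of 19 genes of NRF2 control and its targets outside glutathione, 11 were above 0 and 8 below, with Abcc2 (−1.01), Cul3 (0.89), Abcc3 (−0.75) and Ephx1 (−0.56) nearest to the threshold. Thioredoxin reductase Txnrd1 was at 0.33 (SE 0.25), and 10 of 13 thioredoxin and peroxiredoxin genes were above 0, among them Txn2 (0.62), Prdx4 (0.58), Prdx1 (0.54) and Txnip (0.42). The peroxide and superoxide enzymes Sod2 (0.32), Sod1 (0.31) and Cat (−0.36) were not called. Selenocysteine synthesis, on which Gpx1, Gpx2 and Gpx4 depend, had 6 of 7 genes above 0, among them Sephs1 (0.59), Trnau1ap (0.48), Eefsec (0.36) and Pstk (0.33), and of 7 genes of lipid peroxide handling and ferroptosis 5 were above 0; those with the smallest p were Slc40a1 (0.59), Ncoa4 (0.29), Tfrc (0.29) and Lpcat3 (0.21).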

How the data were processed

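Single cells sorted for Lgr5 were sequenced by Smart-seq2, per the labels' protocols. The authors deposited 1 table of TPM, 1 value per gene and cell; Bowtie2, RSEM and mm10 are named in the submitters' processing notes, with versions and annotation not given in the sources used here. Since TPM values carry no read numbers, depth is unknown; the sets' medians were 6857, 6348.5, 6895 and 6130 genes per cell in HFD 1, HFD 2, control 1 and control 2. TPM was averaged over the used cells of a set, and limma 3.58.1 (R 4.3.3) with a mean-variance trend was run on log2(mean TPM + 1), two-sided, with Benjamini-Hochberg adjustment over all 11667 genes and a threshold of 0.05. The limma step was also run on simulated set values drawn from the variances it had fitted. Such a run cannot show how well that model holds for these sets. A cell held a gene at 1 TPM or more. The members and gene lists were chosen with earlier results of these data known. The text names the 10 genes, up to 4 genes of each list with the smallest p, 4 regulators, 6 genes ranked most like Oplah and its 3 neighbours on either side; Lgr5, Gpx2-ps1 and Rn45s were added. Other settings changed the pseudocount (0.1), the filters, the scaling, the order of log and mean, the trend, the cells and the sets used. Sequences are from RefSeq on GRCm38.p6. Annotated positions are from GENCODE M21 and 1-based.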

Additional observations from a re-analysis of the deposited data

How the results depend on the processing

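Of 11667 genes, 59 were called, 43 higher and 16 lower on the HFD; 14 were called with no filter on cells, 6 with Rn45s left out of the total, 6 with limma without a trend, 0 with no filter on low genes (1398 at an unadjusted p under 0.05) and 81 to 148 with 1 set left out. The split was 5 higher and 1 lower without Rn45s, and 30 and 20 with median-ratio scaling, where 3 of the 9 genes and 19.2% of all genes had both HFD sets above. Taking logs before averaging together with leaving out Rn45s, an alternative chosen after seeing the data, gave 30 calls (10 and 20) and 1 pathway gene, Gstm2. Gstm2 was also the 1 pathway gene called with median-ratio scaling and with logs before averaging. With 1 set left out, a fit in which the lone set is assumed to vary like the others, 0 to 1 of the 9 genes (Ggct, without control 2) and 0 to 1 pathway genes (Cbs, without control 1) were called. The causes were not tested.

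With the set number as a replicate block, the log2 fold changes were the same and 635 of all 11667 genes were called. Among them were 1 of the 9 genes (Gpx2, adjusted p = 0.0380 in limma) and 11 of the 131 pathway genes tested. The 11 were Abcc2, Cndp2, Ethe1, Gstm2, Mgst3, Mthfd2, Phgdh, Prdx4, Psat1, Taldo1 and Txn2. Sets of the same number share only a number in the labels; the deviations of the sets numbered 1 correlated at 0.23 over genes.

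Over the 16 alternatives, Oplah, chosen by this difference, lay between −2.78 and −0.71, which is a description. Gclm (0.45 to 0.79), Gpx2 (0.41 to 0.77), Gpx4 (0.31 to 0.61), Gss, Gsr, Ggct and, over the 15 in which it was tested, Slc7a11 stayed above 0. The filters on low genes, the trend and the replicate block cannot change a fold change, so these alternatives add nothing here. Against the median of all genes in the same setting, Gsr fell below in 2 alternatives, Ggct in 1, Slc7a11 in 2, Gpx1 in 3 and Gclc in 12. Gclm, Gss, Gpx2 and Gpx4 did so in none. Gclc turned to −0.054 without Rn45s, −0.033 with median-ratio scaling, −0.016 with logs before averaging and −0.097 with Rn45s left out and logs before averaging together, and lay between −0.13 and 0.30 with 1 set left out. Gpx1 turned to −0.023 without Rn45s. The difference in share of cells turned to 3.92 percentage points for Gclc at 10 TPM and to −1.12 for Gsr above 0 TPM. With 1 set left out it took both signs for Gclc (−9.71 to 4.96), Gss (−1.80 to 9.40), Gsr (−5.64 to 6.69), Ggct (−0.014 to 17.8), Gpx2 (−0.54 to 0.56), Gpx4 (−1.12 to 2.22) and Slc7a11 (−2.22 to 6.04), and stayed above 0 for Gclm (9.55 to 15.1). With 2 sets per diet and unknown depth, a difference that missed the threshold is not shown to be absent.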
